A study of Mus musculus with 10 samples.

Results

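The genes described here are 10 that encode parts of the heart muscle cell, measured in whole lungs of newborn mice: Myh6, Tnnt2, Tnni3, Nppa, Sln, Pln, Actc1, Myl4, Myl7 and Ryr2. They were chosen by symbol, and every probe set that the platform annotation assigns to exactly 1 of these symbols was taken, 18 of 45101 in all. For each gene the probe set that is brightest on average leads and the others serve as a check, so that the genes are 10 of 18193 with such a probe set. All 10 passed the filter on low values, a log2 intensity of 5 or more on at least 2 arrays, and their lead probe sets reached 5 on all 10 arrays. In total 14988 genes passed it.

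The study modelled bronchopulmonary dysplasia, a lasting lung disease of babies born too early and given oxygen, in wild-type (WT) ICR mice. Pups were pooled within 12 hours of birth and assigned at random to 80% oxygen (labelled BPD, here called hyperoxia) or to room air (labelled WT) until postnatal day 14 (P14) or day 29 (P29), while the nursing dams were rotated daily between the exposures. Each age had 2 room-air arrays and 3 hyperoxia arrays, and no group carried an allele or any agent besides oxygen. Lungs were dissected by hand, in part under a microscope, and washed before RNA was extracted, and no label states how much heart, vein or other tissue stayed attached.

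Heart muscle contracts through sarcomeres, in which myosin thick filaments pull on actin thin filaments when troponin binds calcium that the ryanodine receptor releases from the sarcoplasmic reticulum. In mice, a sleeve of heart muscle cells extends from the left atrium along the pulmonary veins into the lung, so that transcripts of this kind occur in lung RNA even where no heart tissue was taken. This venous muscle carries the atrial set of sarcomere proteins, whereas the ventricle uses other light chains, chiefly the product of Myl2.

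The arrays were of similar overall level, with medians over all probe sets of 6.41 to 6.47. The lung label was borne out by Sftpc, the surfactant protein C gene of type 2 cells (14.66 to 14.89), Scgb1a1 of airway club cells (14.45 to 15.003) and Ager of type 1 cells (14.03 to 14.45). The number of arrays limits the precision of every value, and since separate animals are not recorded for them, the p-values reflect array-to-array spread that may be technical. Xist, the RNA of the inactive X chromosome, was at 6.63 to 6.99 on the P14 arrays and at 12.48 and 12.66 on the P29 room-air arrays. In P29 hyperoxia it was 7.12 in replicate 1, 12.54 in replicate 2 and 11.94 in replicate 3, and the mean of the Y-linked genes was 8.51, 3.47 and 7.71. The actin control probe sets, read as 3' minus 5' log2 values to gauge RNA integrity, gave 1.69 ± 0.46 (SD, n = 3) and 1.81 ± 0.08 (n = 3) in hyperoxia at P14 and P29. In room air they gave 0.43 ± 0.16 (n = 2) and 0.63 ± 0.16 (n = 2).

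The 250 bases before the annotated start are shown for Myh6, which led the rise at P14, for Nppa, which departed from the other genes at P29, and for Myl7, whose arrays varied most in P29 hyperoxia. They come from RefSeq on build GRCm38.p6, 5′ to 3′ on the gene's strand, at chr14:54966608-54966857 (minus strand), chr4:148000472-148000721 (plus strand) and chr11:5898783-5899032 (minus strand). Capitals mark every match to 6 motifs: MEF2-type (CTA and TAG parted by any 4 bases), GATAA, NKX2-5-type TNAAGTG and M-CAT CATTCC on both strands, the CArG box of serum response factor on both strands, and TATAAA on the sense strand.
Myh6: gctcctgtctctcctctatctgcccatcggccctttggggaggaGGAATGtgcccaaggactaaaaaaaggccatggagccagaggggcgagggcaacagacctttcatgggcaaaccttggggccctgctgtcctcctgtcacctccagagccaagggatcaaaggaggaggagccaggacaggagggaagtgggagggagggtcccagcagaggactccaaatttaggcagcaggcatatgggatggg
Nppa: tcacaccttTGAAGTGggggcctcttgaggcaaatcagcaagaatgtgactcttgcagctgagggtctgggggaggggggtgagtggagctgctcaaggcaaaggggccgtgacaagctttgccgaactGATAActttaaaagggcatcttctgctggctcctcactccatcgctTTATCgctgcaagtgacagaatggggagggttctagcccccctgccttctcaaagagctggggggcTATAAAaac
Myl7: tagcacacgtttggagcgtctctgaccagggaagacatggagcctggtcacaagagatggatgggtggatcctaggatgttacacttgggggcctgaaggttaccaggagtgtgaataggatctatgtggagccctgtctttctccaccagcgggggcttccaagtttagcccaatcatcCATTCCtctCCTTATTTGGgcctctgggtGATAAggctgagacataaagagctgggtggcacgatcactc
Myl7 held an M-CAT element 70 to 65 bases before its start, a CArG box at 61 to 52 and GATAA at 41 to 37. Nppa held the NKX2-5-type motif at 241 to 235, GATAA at 121 to 117 and at 75 to 71, and TATAAA at 9 to 4. The Myh6 window held 1 match, an M-CAT element at 206 to 201.

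Of the 10 genes, 9 have an entry in the promoter table; Sln does not. Over these 9, GATAA occurred in 4 (Tnnt2, Nppa, Pln and Myl7) against 22.6% of all 32851 windows, M-CAT in 3 (Myh6, Tnnt2 and Myl7) against 12.6%, and the CArG box in 2 (Actc1 and Myl7) against 1.47%. TATAAA occurred in Nppa and Pln (7.59% of all windows) and the NKX2-5-type motif in Nppa alone (10.1%). The MEF2-type motif, found in 3.20% of all windows, was in none of the 9. A match describes letters in this window and shows no binding.

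**Figure D1:**
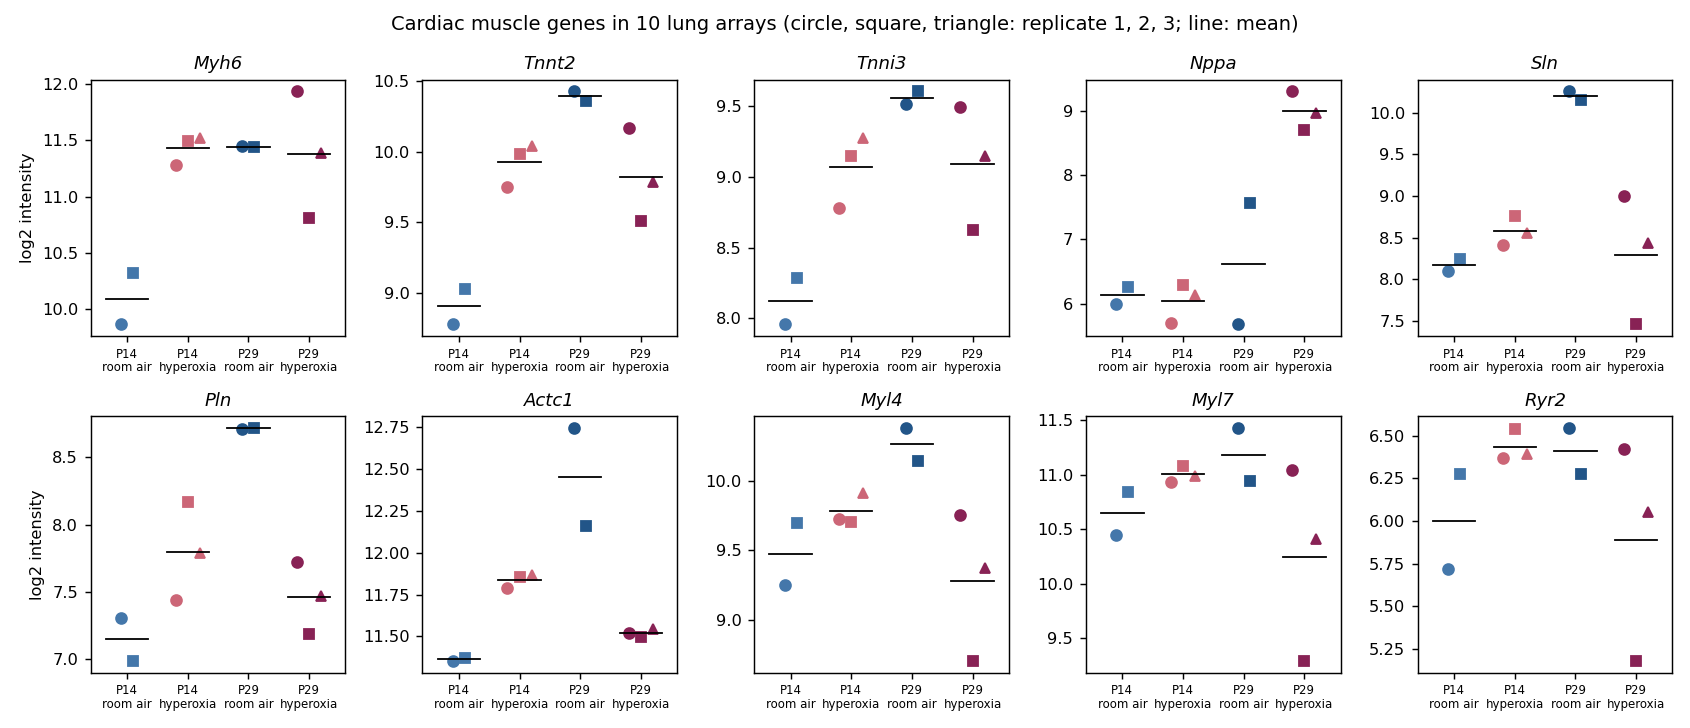
Log2 intensity (vertical axis) of the lead probe set of each gene on the 10 arrays, by age and oxygen; circles, squares and triangles are replicates 1, 2 and 3, and lines are group means. Myh6, Tnnt2 and Tnni3 are lowest on the P14 room-air arrays, Sln and Pln are highest on the P29 room-air arrays, and Nppa is highest on the P29 hyperoxia arrays.

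The first comparison asked how the heart muscle transcripts of the lung differed after 14 days of oxygen. Myh6, Tnnt2, Tnni3, Pln and Actc1 were higher in hyperoxia, and no gene was lower. In limma's test across all genes with a Benjamini-Hochberg adjusted p under 0.05, these 5 of 10 rose, while 32.3% of all genes tested did. None of the 10 fell, adjusted or at an unadjusted p under 0.05 (0 genes), against 22.8% of all genes. The median log2 difference of the 10 genes was 0.45, and that of all genes tested was 0.04. The arrays of the groups did not overlap for 9 of 10 genes, all higher in hyperoxia, a pattern met by 39.6% of all genes; 0 lay wholly lower, against 31.7%.

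The second comparison asked the same after 29 days, when the direction was mostly the opposite. Tnnt2, Sln, Pln, Actc1, Myl4 and Myl7 fell, 6 of 10 against 25.6% of all genes, while Nppa rose, 1 of 10 against 34.2%. The median difference was -0.75, and over all genes 0.04. The arrays did not overlap for 6 genes that were lower (Tnnt2, Tnni3, Sln, Pln, Actc1 and Myl4; 33.1% of all genes) and for Nppa, which was higher (41.2%). With this actin measure added to the model, limma called none of the 10 genes in either comparison. It called 5.42% of all genes higher and 3.86% lower at P14, and 10.9% and 8.52% at P29. At an unadjusted p under 0.05 that fit left 0 genes at P14, and 0 higher and 3 lower at P29. At P14 the differences in that fit were 1.16 ± 0.59 for Myh6, 0.79 ± 0.38 for Tnnt2, 0.66 ± 0.47 for Pln and 0.56 ± 0.31 for Actc1, with larger SEs than without the term, and 0.44 ± 0.49 for Tnni3. At P29 they were -1.74 ± 0.72 for Sln, -1.25 ± 0.45 for Pln, -0.85 ± 0.30 for Actc1 and 1.56 ± 0.89 for Nppa. The sign of every one of the 10 differences at either age was the same with and without the term, and the actin value lay higher on every hyperoxia array than on any room-air array; its part in the result was not tested. Xist was high on both P29 room-air arrays and low on P29 hyperoxia replicate 1, and the part of sex in the P29 differences was not tested. As the samples are bulk tissue, fewer heart muscle cells and less RNA in each of them cannot be told apart.

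**Figure D2:**
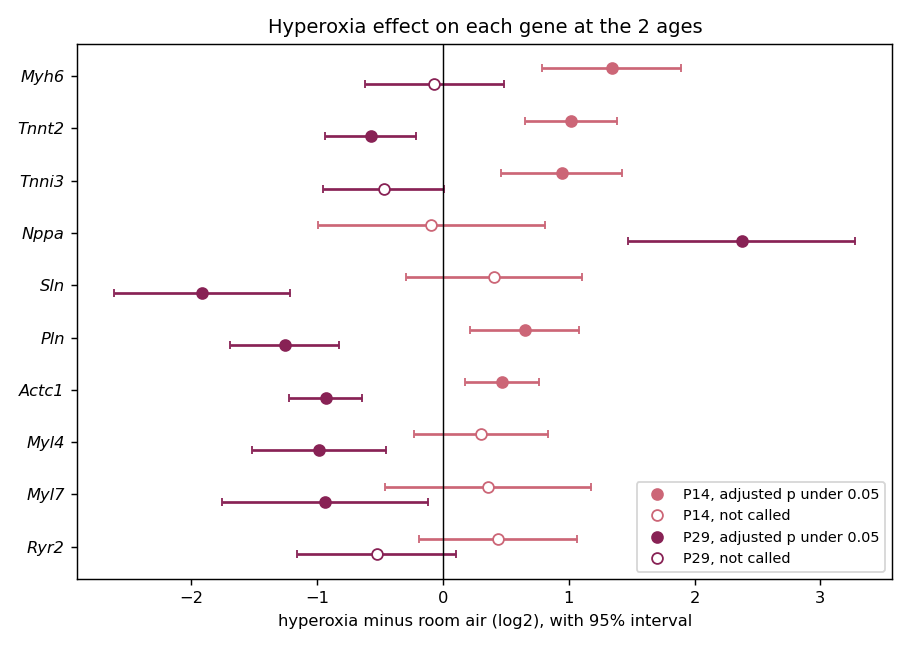
Difference between hyperoxia and room air (log2, horizontal axis) for each gene at P14 and at P29, with the 95% interval of limma's fit; filled points had an adjusted p under 0.05. Myh6 lies at 1.34 at P14 and -0.07 at P29, Sln at 0.41 and -1.91, and Nppa at -0.09 and 2.38.

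Among the thick filament genes, Myh6 encodes the alpha myosin heavy chain, the main motor of the adult mouse heart. Its log2 intensity was 9.86 and 10.32 in P14 room air and 11.28, 11.50 and 11.52 in P14 hyperoxia. At P29 it was 11.45 and 11.44 in room air and 11.94, 10.81 and 11.39 in hyperoxia. The P14 room-air arrays thus stood below all 8 others, and the remaining groups overlapped one another. Myh6 was 2.53-fold higher in hyperoxia than in room air at P14 (1.34 ± 0.25, SE, on the log2 scale, limma adjusted p = 0.00106). At P29 the difference was -0.07 with a 95% interval of -0.62 to 0.48 (adjusted p = 0.833). It was called lower with the Y-linked level as a term (-0.61, adjusted p = 0.0192). The fit with the female P29 hyperoxia array alone gave -0.63, and both fits draw mainly on that array. Myh6 was also called lower as the mean of its probe sets (-0.94, adjusted p = 0.000262). The dimmer of these is below 5 on 8 arrays.

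Myl4 and Myl7 encode the essential and regulatory myosin light chains of the atrium. Myl4 was at 9.25 and 9.70 in P14 room air, 9.72, 9.71 and 9.91 in P14 hyperoxia, 10.38 and 10.14 in P29 room air, and 9.76, 8.70 and 9.37 in P29 hyperoxia. At P14 its groups nearly met, and the difference of 0.30 (interval -0.23 to 0.84, adjusted p = 0.302) did not pass the test. At P29 the hyperoxia arrays all lay below the room-air arrays, a 1.98-fold fall (-0.98 ± 0.24, adjusted p = 0.00489).

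Myl7 was at 10.45 and 10.84 in P14 room air and 10.94, 11.08 and 10.99 in P14 hyperoxia, a difference of 0.36 (interval -0.46 to 1.17, adjusted p = 0.431). In P29 room air it was 11.43 and 10.94, and in P29 hyperoxia 11.05, 9.29 and 10.41. These P29 groups overlapped, because hyperoxia replicate 1 exceeded room-air replicate 2. The fall of 0.93 ± 0.37 (adjusted p = 0.0482) was the weakest of the 6 called at P29. It ended without room-air replicate 1 (-0.69, adjusted p = 0.253), without room-air replicate 2 (-1.18, adjusted p = 0.0632), without hyperoxia replicate 2 (-0.46, adjusted p = 0.093) and without hyperoxia replicate 3 (-1.02, adjusted p = 0.0621). With the replicate number as a block the adjusted p was 0.0589.

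On the thin filament, Tnnt2 encodes cardiac troponin T, which ties troponin to tropomyosin. Its values were 8.78 and 9.03 in P14 room air and 9.75, 9.99 and 10.04 in P14 hyperoxia. In P29 room air they were 10.43 and 10.36, and in P29 hyperoxia 10.17, 9.51 and 9.79. The hyperoxia groups of both ages overlapped, and lay above P14 room air and below P29 room air. Tnnt2 rose 2.03-fold at P14 (1.02 ± 0.16, adjusted p = 0.000425) and fell 1.49-fold at P29 (-0.57 ± 0.16, adjusted p = 0.0115). The P29 call ended without room-air replicate 1 (-0.54, adjusted p = 0.0647).

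Tnni3 encodes cardiac troponin I, the inhibitory subunit. It was at 7.96 and 8.29 in P14 room air, 8.78, 9.15 and 9.28 in P14 hyperoxia, 9.51 and 9.61 in P29 room air, and 9.50, 8.62 and 9.15 in P29 hyperoxia. Its groups took the same places as those of Tnnt2. The P14 rise was 1.93-fold (0.95 ± 0.22, adjusted p = 0.00391), and ended without room-air replicate 1 (0.78, adjusted p = 0.054). The P29 difference was -0.47 (interval -0.95 to 0.01, adjusted p = 0.0855). It passed after quantile normalization (-0.61, adjusted p = 0.0331) and with each array set to its own 75th percentile (-0.60, adjusted p = 0.0333), and without hyperoxia replicate 1 (-0.67, adjusted p = 0.0142).

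Actc1 encodes cardiac alpha actin, the actin of the heart's thin filament. Its arrays lay closer together than those of the other 9 genes in 3 of 4 groups: 11.35 and 11.37 in P14 room air, 11.79, 11.85 and 11.87 in P14 hyperoxia, and 11.52, 11.50 and 11.54 in P29 hyperoxia. P29 room air was the exception, at 12.74 and 12.16. None of the 4 groups overlapped any other. Actc1 rose by 0.47 ± 0.13 at P14 (adjusted p = 0.0113) and fell 1.90-fold at P29 (-0.93 ± 0.13, adjusted p = 0.000146). Without P14 room-air replicate 1 the P14 rise was 0.46 (adjusted p = 0.064).

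In the calcium cycle, Sln encodes sarcolipin, a small membrane peptide that restrains the calcium pump of the sarcoplasmic reticulum and is mainly atrial in the mouse heart. Its values were 8.10 and 8.24 in P14 room air, 8.41, 8.76 and 8.55 in P14 hyperoxia, 10.26 and 10.15 in P29 room air, and 8.996, 7.46 and 8.43 in P29 hyperoxia. Only P29 room air stood apart, with both arrays above 10. The P29 fall, 3.75-fold (-1.91 ± 0.32, adjusted p = 0.000416), was the largest fall among the 10 genes. At P14 the difference was 0.41 (interval -0.29 to 1.10, adjusted p = 0.295).

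Pln encodes phospholamban, the related inhibitor of the pump, which smooth muscle makes as well. Pln was at 7.31 and 6.99 in P14 room air, 7.44, 8.17 and 7.79 in P14 hyperoxia, 8.71 and 8.72 in P29 room air, and 7.72, 7.19 and 7.47 in P29 hyperoxia. As for Sln, P29 room air lay above every other array. Pln rose by 0.65 ± 0.20 at P14 (adjusted p = 0.0167) and fell 2.39-fold at P29 (-1.26 ± 0.20, adjusted p = 0.000288). Without P14 room-air replicate 2 the P14 rise was 0.49 (adjusted p = 0.136).

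Ryr2 encodes the cardiac ryanodine receptor, the calcium release channel. It was the dimmest lead probe set on average, at 5.72 and 6.28 in P14 room air, 6.37, 6.54 and 6.39 in P14 hyperoxia, 6.55 and 6.27 in P29 room air, and 6.42, 5.18 and 6.06 in P29 hyperoxia. In the order of the group means, each group overlapped the next. Neither difference passed the test, at 0.44 (interval -0.19 to 1.07, adjusted p = 0.213) at P14 and -0.52 (interval -1.15 to 0.10, adjusted p = 0.134) at P29. Without P29 hyperoxia replicate 1 the P29 difference was called (-0.79, adjusted p = 0.0212).

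Nppa encodes atrial natriuretic peptide, a hormone that atrial muscle releases on stretch and that relaxes vessels and promotes salt excretion. It was at 5.999 and 6.27 in P14 room air and 5.69, 6.30 and 6.13 in P14 hyperoxia. At P29 it was at 5.68 and 7.56 in room air and at 9.31, 8.71 and 8.97 in hyperoxia. All P29 hyperoxia arrays thus exceeded every other array, and the P29 room-air arrays were 1.88 apart. Nppa rose 5.19-fold at P29 (2.38 ± 0.41, adjusted p = 0.000529), against a P14 difference of -0.09 (interval -0.99 to 0.81, adjusted p = 0.862). The size rests on the room-air pair: without replicate 1 it was 1.43 (adjusted p = 0.00124) and without replicate 2 it was 3.32 (adjusted p = 1.12e-05). Nppb, the B-type natriuretic peptide gene and not among the 10, was at 5.40 and 5.45 in P29 room air and 5.92, 6.23 and 6.12 in P29 hyperoxia (0.66 ± 0.10, adjusted p = 0.000283).

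The difference between the effects of oxygen at the 2 ages was tested directly. It was negative for 9 of 10 genes and passed for 7 of them, Myh6, Tnnt2, Tnni3, Sln, Pln, Actc1 and Myl4, against 11.6% of all genes called in that direction. Nppa was called in the positive direction, 1 of 10 against 11% of all genes. The size ran from -1.29 ± 0.34 (SE) for Myl4 to -2.31 ± 0.45 for Sln (limma adjusted p = 0.0198 and 0.004), and was 2.47 ± 0.58 for Nppa (adjusted p = 0.0109). For Myl7 it was -1.29 (interval -2.45 to -0.14, adjusted p = 0.104) and for Ryr2 -0.96 (interval -1.85 to -0.07, adjusted p = 0.115). Both were called without P29 hyperoxia replicate 1, at -1.69 (adjusted p = 0.0135) and -1.23 (adjusted p = 0.0281). With the actin term the same counts were called, 7 lower and 1 higher (11.3% and 11% of all genes). The actin means in hyperoxia and room air were 1.69 and 0.43 at P14 and 1.81 and 0.63 at P29. As that gap was similar at both ages, the term could move this difference little. Without P14 room-air replicate 1 the calls for Myh6 (-1.18, adjusted p = 0.0661) and Myl4 (-1.06, adjusted p = 0.0823) ended. Without P14 room-air replicate 2 that of Nppa ended (2.33, adjusted p = 0.0513), and without P29 room-air replicate 1 that of Myl4 ended (-1.17, adjusted p = 0.0736) and the difference for Nppa was 1.53 (adjusted p = 0.00934). Sex-linked transcripts also differed between the groups. Xist was low on all P14 arrays, high on both P29 room-air arrays and low on P29 hyperoxia replicate 1 alone. With the Y-linked level as a term 9 genes were called lower and 1 higher (9.95% and 9.79% of all genes). Within groups that level varied most in P29 hyperoxia, so that this fit draws mainly on those arrays. The part of sex in this difference was not tested.

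Between P14 and P29 the genes changed in room air but, apart from Nppa, none was called in hyperoxia. In room air 7 of 10 rose, against 22.2% of all genes: Sln by 2.03 ± 0.35, Pln by 1.57 ± 0.22, Tnnt2 by 1.49 ± 0.18, Tnni3 by 1.44 ± 0.24, Myh6 by 1.35 ± 0.27, Actc1 by 1.09 ± 0.15 and Myl4 by 0.79 ± 0.27. The adjusted p ran from 5.79e-05 for Tnnt2 to 0.0338 for Myl4, whose call ended without P14 room-air replicate 1 (0.56) and without either P29 room-air array (0.67 and 0.90). In hyperoxia 1 of 10 rose, against 15.4% of all genes, and this was Nppa, 7.75-fold higher at P29 (2.95 ± 0.37, adjusted p = 0.000204). None fell in hyperoxia by limma's adjusted p, and 3 did at an unadjusted p under 0.05 (Actc1, Myl4 and Myl7), while 11.7% of all genes fell. Without P29 hyperoxia replicate 1 the falls of Myl7 (-1.15, adjusted p = 0.0113), Ryr2 (-0.82, adjusted p = 0.0269) and Myl4 (-0.74, adjusted p = 0.0174) passed, and without P14 hyperoxia replicate 1 that of Pln did (-0.52, adjusted p = 0.0485). Nppa differed by 0.49 with age in room air (adjusted p = 0.424), and by 1.43 without P29 room-air replicate 1 (adjusted p = 0.00213). The arrays of the ages did not overlap in room air for 8 genes, all higher at P29 (36% of all genes; 33% lower), and in hyperoxia for Nppa, higher (25.3%), and Actc1, lower (20%). None of the 10 was called lower with age in room air, at an adjusted or an unadjusted p under 0.05 (0 genes), against 19.1% of all genes. The interaction above is also the test of the difference between these age changes. In room air, Xist was low on both P14 arrays and high on both P29 arrays, so that sex and age cannot be told apart there.

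**Figure D3:**
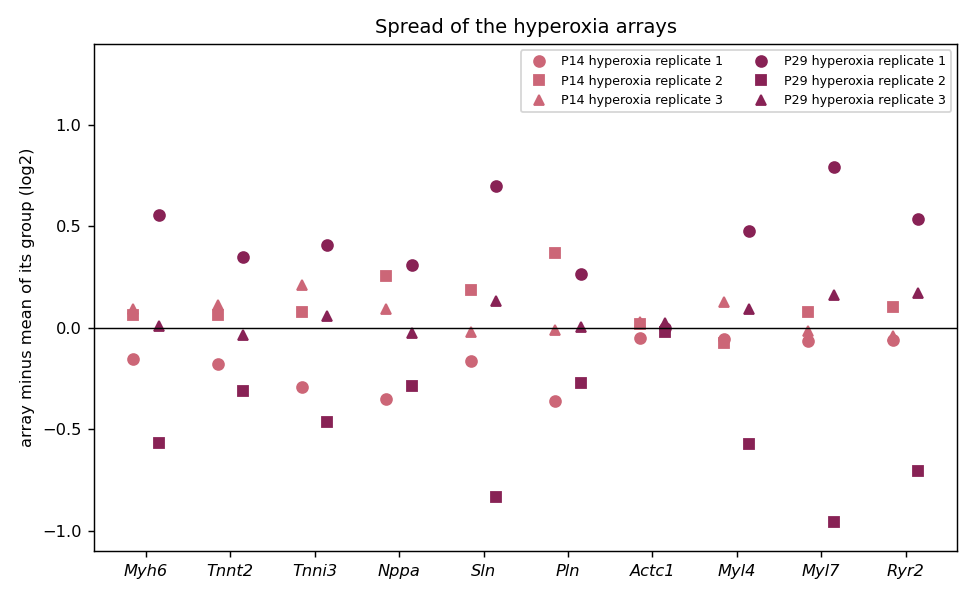
Log2 intensity of each hyperoxia array minus the mean of its group (vertical axis) for the 10 genes at P14 and P29; circles, squares and triangles are replicates 1, 2 and 3. P29 replicate 2 is lowest for all 10 genes and replicate 1 highest for 9, while the arrays of Actc1 lie within 0.04 at P29.

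The 3 P29 hyperoxia arrays differed from each other in these genes more than in most. Their median range over the 10 genes was 0.96, against 0.17 over all genes tested, and 0.27 for the 10 genes in P14 hyperoxia. Replicate 2 was the lowest of the 3 for all 10 genes, as for 32.0% of all genes, and replicate 1 the highest for 9, as for 28.1%. The gap between replicates 1 and 2 was 1.75 for Myl7, 1.54 for Sln, 1.25 for Ryr2, 1.12 for Myh6 and 1.05 for Myl4. It was 0.60 for Nppa, and 0.02 for Actc1. Replicate 1 carried the male pattern of sex-linked transcripts, replicate 2 the female pattern and replicate 3 both, and 9 of the 10 genes, all but Actc1, ranked the 3 arrays as the Y-linked level did. The part of sex in this spread was not tested. With replicate 2, the array of female RNA, as the only P29 hyperoxia array against the female room-air arrays, 9 of 10 genes were called lower and Nppa higher (2.09, adjusted p = 0.0143). Of all genes 19.1% were called lower and 27.5% higher in that fit. This array is the one on which all 10 genes were lowest, and the lone array was assumed to vary as the other groups do. With the Y-linked level as a term the counts were 9 lower and 1 higher (20.4% and 29.7% of all genes). Within groups that level varied most over these 3 arrays (8.51, 3.47 and 7.71). This fit thus leans on the same array and is no separate check. Without replicate 1 they were 8 and 1 (22.2% and 31.3%).

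**Figure D4:**
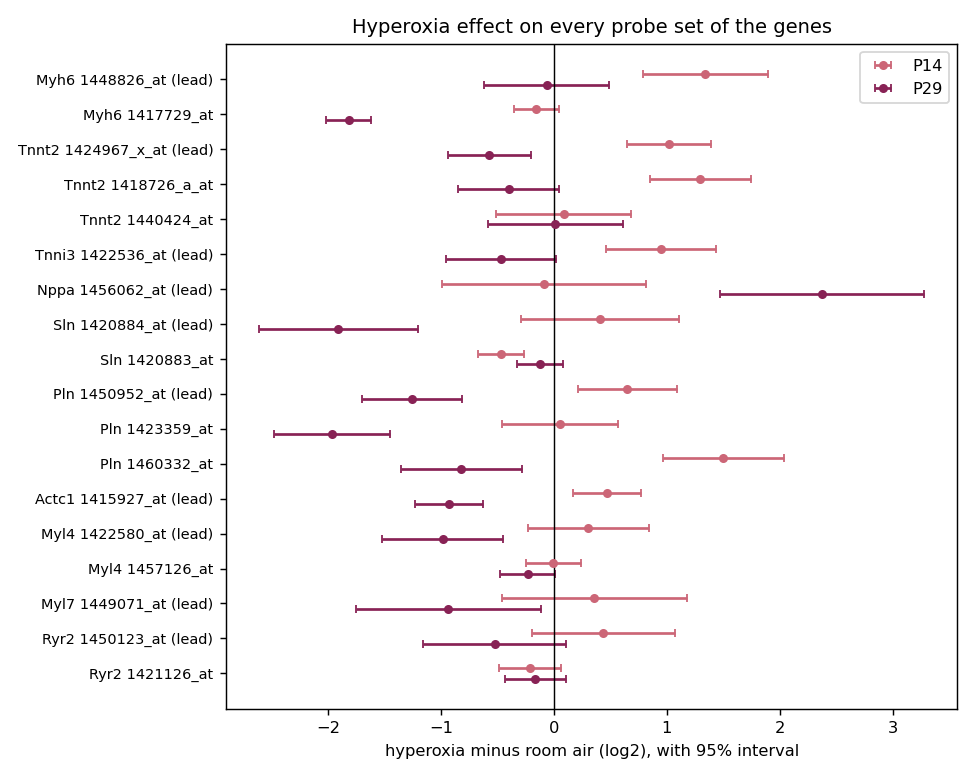
Difference between hyperoxia and room air (log2, horizontal axis) for each of the 18 probe sets at P14 and at P29, with the 95% interval. The 3 Pln probe sets all lie below 0 at P29, while 4 probe sets (the dimmer ones of Myh6, Sln and Ryr2 and the dimmest of Tnnt2) were below 5 on 8 or more arrays.

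Of the 10 genes, 6 had dimmer probe sets, 8 in all. For Pln the 2 others gave 0.05 and 1.4996 at P14 and -1.96 and -0.82 at P29, so that its fall at P29 was called on all 3 and its rise at P14 on 2. Another Tnnt2 probe set gave 1.30 at P14 (adjusted p = 0.000513, over all probe sets) and -0.40 at P29 (adjusted p = 0.127), and no difference is read from the dimmest, below 5 on 9 of 10 arrays. The dimmer Myh6 probe set behaved otherwise. It read 5.08 and 5.07 on the P29 room-air arrays and was below 5, at 3.09 to 3.39, on the other 8, so that it gives a level in P29 room air alone and no size for a difference. Those of Sln and Ryr2 were below 5 on all 10 arrays, and no difference is read from them. That of Myl4 gave -0.0042 and -0.23, neither called. A further 2 probe sets carry the symbols of Myh6 and Myh7 together and were not used.

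Among other sarcomere genes, more were called higher than lower at P14 and more lower than higher at P29. Of 18 heart muscle sarcomere genes outside the 10, all measured, 9 rose at P14, where 32.3% of all genes rose and 22.8% fell. Only Myl2 was called lower. It reached 5 on the P14 room-air arrays alone, through which it passed the filter, and no fall is read from it. At P29 2 rose and 7 fell, where 34.2% and 25.6% of all genes did. Their median was 0.35 and -0.26, with all genes tested at 0.04 both times. At P14 Ldb3, a Z-disc protein, rose by 2.19 ± 0.12 (SE, adjusted p = 5.68e-07) and Myom1, an M-band protein, by 1.24 ± 0.13 (adjusted p = 2.94e-05). At P29 Tcap, which caps titin at the Z-disc, fell by 1.63 ± 0.24 (adjusted p = 0.000195) and Myh7, the slow beta myosin heavy chain, by 0.64 ± 0.11 (adjusted p = 0.00037), while Ldb3 was again higher (1.10 ± 0.12, adjusted p = 2.6e-05). The difference between the ages was called lower for 12 of these 18 genes (11.6% of all genes) and higher for 1 (11%). The latter was Myl2, and it is not read for the same reason. In room air 14 of the 18 rose with age and 2 were called lower (22.2% and 19.1% of all genes). These were Myl3 and, again through the P14 arrays alone, Myl2. In hyperoxia 2 rose and 2 fell (15.4% and 11.7%).

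A list of calcium handling, channel and secreted peptide genes outside the 10 went both ways. Of 17 listed, 14 were tested, and 3 rose and 5 fell at either age, with the shares of all genes as above. Nppb and Bmp10, which encode secreted factors, were among the 5 that fell at P14. At P29 Nppb was among the 3 that rose, and Bmp10 and Corin, the protease that activates atrial natriuretic peptide, were among the 5 that fell. Casq2, the calcium store protein of the reticulum, rose by 1.14 ± 0.17 at P14 (adjusted p = 0.00029), where Cacnb2, a calcium channel subunit, fell by 1.17 ± 0.14. Kcna5, a potassium channel gene, is 1 of the 5 counted as lower at P14. It reached 5 only on the P14 room-air arrays (5.10 and 5.63), through which it passed the filter, and was at 4.24 to 4.80 on the other 8. No fall is read from it. At P29 Hrc, a calcium-binding protein of the reticulum, fell by 1.01 ± 0.11, while the calcium channel gene Cacna1c rose by 1.13 ± 0.10. Gja5, a gap junction gene that arterial endothelium also expresses, was at 5.20 and 5.44 in P29 room air and below 5 on all 3 P29 hyperoxia arrays (4.25 to 4.46). Atp2a2, the pump that Sln and Pln restrain and which most cells express, rose by 0.20 ± 0.07 at P14 and 0.29 ± 0.07 at P29 (adjusted p = 0.0319 and 0.00505).

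Of 9 muscle energy genes, 3 rose at P14 (Cox7a1 by 1.05 ± 0.20, Cox6a2 by 0.62 ± 0.13 and Pgam2 by 0.83 ± 0.18), against 32.3% of all genes. At P29 4 fell, against 25.6% of all genes. Among them were Eno3, a muscle enolase (-0.82 ± 0.14, adjusted p = 0.000384), and Fabp3, the heart fatty acid binding protein (-0.72 ± 0.15, adjusted p = 0.00193). None of the 9 fell at P14 or rose at P29 (22.8% and 34.2% of all genes). Of 11 cardiac transcription factors, 7 were tested. At P14 2 were called higher (Myocd and Tbx20) and 1, Tbx5, fell. At P29 2 rose and 2 were called lower, with the shares of all genes as above. Isl1, 1 of the latter, reached 5 on room-air arrays alone (5.23 in P14 replicate 1, 5.34 and 5.29 at P29). No fall is read from Isl1. Tbx20 was at 3.94 and 4.58 in P14 room air, 6.68, 6.30 and 6.62 in P14 hyperoxia, 4.47 and 4.50 in P29 room air, and 5.85, 4.01 and 5.0003 in P29 hyperoxia. It was thus below 5 on all 4 room-air arrays and 1 P29 hyperoxia array, and passed the filter through hyperoxia arrays alone, so that no size is given for its difference. Nkx2-5, the homeobox factor of heart muscle, differed by -0.24 ± 0.13 at P14 (adjusted p = 0.138) and fell by 0.45 ± 0.13 at P29 (adjusted p = 0.0112). Myocd, the coactivator of serum response factor in heart and smooth muscle, rose at both ages (0.82 ± 0.13 and 0.86 ± 0.13).

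**Figure D5:**
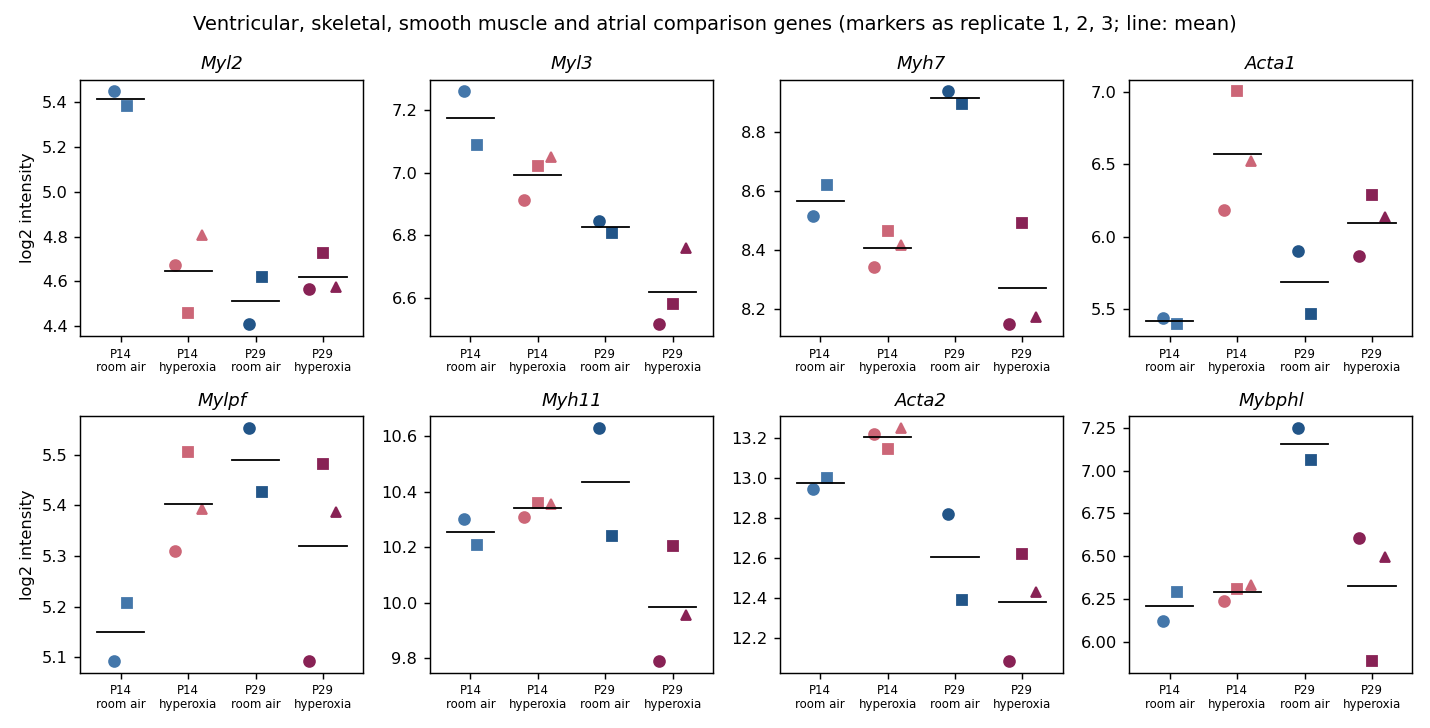
Log2 intensity (vertical axis) on the 10 arrays of ventricular genes (Myl2, Myl3, Myh7), skeletal muscle genes (Acta1, Mylpf), smooth muscle genes (Myh11, Acta2) and the atrial gene Mybphl; symbols are replicates and lines group means. Myl2 is above 5 on the P14 room-air arrays alone.

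Markers of neighbouring muscle were read beside these values. Myl2, the light chain that defines the ventricle, was at 5.45 and 5.38 in P14 room air and at 4.41 to 4.81 on the other 8 arrays. It thus reached 5 only on the P14 room-air arrays, through which it passed the filter, and no difference is read from it. Of 5 ventricle-preferential genes 0 rose at either age and 2 were called lower at P29 (Myh7 and Irx4). Irx4 reached 5 on room-air arrays alone (5.06 in P14 replicate 1, 5.18 and 5.16 at P29), through which it passed the filter. No fall is read from it. At P14 only Myl2 was called lower, through the arrays by which it passed the filter. Of all genes tested, 32.3% rose and 22.8% fell at P14, and 34.2% and 25.6% did at P29. The mean log2 value of the ventricular list was 6.32 to 6.34, 6.04 to 6.13, 6.21 to 6.22 and 5.94 to 6.01 in P14 room air, P14 hyperoxia, P29 room air and P29 hyperoxia. Myl3 was at 6.51 to 7.26 and was not called (-0.18, adjusted p = 0.125, and -0.21, adjusted p = 0.0766). Its dimmer probe sets, not called either, gave -0.17 and -0.22 at P14 and 0.25 and 0.01 at P29. Myh7, the brightest of the 5, was at 8.15 to 8.94. Of 6 atrium-preferential genes outside the 10, 0 rose and 2 were called lower at P14. These were Bmp10, at 4.50 to 5.43 over the 10 arrays, and Kcna5, which reached 5 on the P14 room-air arrays alone. At P29 1 rose (Dkk3) and 3 fell (Mybphl, Kcnj3 and Bmp10). The mean of that list was 6.60 to 6.65, 6.25 to 6.37, 6.37 to 6.44 and 6.09 to 6.26 in the same order. Mybphl, an atrial myosin-binding protein gene, differed by 0.09 at P14 (adjusted p = 0.683) and fell by 0.83 ± 0.17 at P29 (adjusted p = 0.00179). Dkk3 went the other way at P29 and rose by 0.69 ± 0.07 (adjusted p = 1.94e-05). The difference between the ages was called lower for Mybphl (-0.92) and higher for Dkk3 (0.84). Muscle of the pulmonary vein and attached atrial tissue share the transcripts measured here and cannot be told apart.

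Of 15 skeletal muscle genes, 5 (the fast myosin genes Myh1, Myh2 and Myh4, with Cacna1s and Myl1) were below 5 on every array, and 9 were tested. Of these 1 rose and 2 fell at P14, and at P29 0 rose and 5 were called lower. Ryr1, 1 of these 5, reached 5 on the P29 room-air arrays alone (5.63 and 5.79), through which it passed the filter. No fall is read from it. Over all genes tested, 32.3% rose and 22.8% fell at P14, and 34.2% and 25.6% did at P29. The mean of the list was 4.88 to 4.95, 4.83 to 4.98, 5.07 to 5.14 and 4.87 to 4.99 in the group order used above. Acta1, skeletal alpha actin, was at 5.44 and 5.40 in P14 room air and 6.19, 7.002 and 6.52 in P14 hyperoxia (1.15 ± 0.21, adjusted p = 0.000893), while Mylpf, the fast skeletal light chain, lay between 5.09 and 5.55 on all arrays. Smooth muscle genes, which share Pln with the heart, had means of 10.07 to 10.15, 10.16 to 10.19, 9.64 to 10.23 and 9.50 to 9.99. Of these 7 genes 1 rose and 1 fell at P14, and 2 fell at P29, Myh11 by 0.45 ± 0.13 and Cnn1 by 0.66 ± 0.24, with the shares of all genes as above. The fall of Myh11 was not seen on its dimmer probe set, at 6.61 to 7.06 on the arrays. That probe set gave 0.06 at P29 (limma adjusted p = 0.658) and 0.41 at P14 (adjusted p = 0.0111). Acta2 differed by 0.23 and -0.23 (adjusted p = 0.212 and 0.214). Of 4 brown fat genes, Ucp1, the defining one, and Elovl3 were below 5 on every array. The other two rose in hyperoxia at both ages: Cidea, a lipid droplet protein gene, by 0.56 ± 0.11 and 0.38 ± 0.11 (adjusted p = 0.0018 and 0.0143), and Dio2, which activates thyroid hormone, by 0.69 ± 0.14 and 0.62 ± 0.14 (adjusted p = 0.00194 and 0.00326). Whether these lists had a part in the differences of the 10 genes was not tested.

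The genes most like Myh6 in pattern were sought among 1864 others with an SD of 0.5 or more over the 10 arrays. As a description, with array groups shared by all genes, the 8 with the highest Pearson correlation over the 10 arrays were Ttn (0.953), Myoz2 (0.932), Cox7a1 (0.913), Ccdc88c (0.898), Cyfip2 (0.898), Tmem212 (0.893), Smpx (0.88) and Rasef (0.879). Ttn encodes titin, the elastic filament of striated muscle, Myoz2 encodes a Z-disc protein, and Smpx is also a striated muscle gene. Ccdc88c, Cyfip2, Tmem212 and Rasef are on none of the muscle lists used here. Their Spearman correlations with Myh6 were 0.527, 0.648, 0.721 and 0.321, against 0.77 for Ttn and 0.83 for Myoz2. Ttn was at 7.22 and 7.82 in P14 room air, 9.46, 9.56 and 9.12 in P14 hyperoxia, 8.96 and 8.83 in P29 room air, and 9.91, 8.53 and 9.18 in P29 hyperoxia. As with Myh6, for likeness to which it was picked, its lowest arrays were those of P14 room air. P29 hyperoxia replicate 2 was the lowest of its group.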

How the data were processed

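The authors deposited 1 log2 value for each of 45101 probe sets on 10 arrays. Per the submitters' processing notes, Partek 6.4 and GCRMA were used; no source used here gives their settings. Symbols came from the platform annotation. A mean per group was estimated over the 10 arrays by limma 3.58.1 (R 4.3.3, lmFit, eBayes, 6 residual degrees of freedom), two-sided, with Benjamini-Hochberg adjustment over 14988 genes and a threshold of 0.05. "Rose" and "fell" are used of genes past it. SE is that of the fitted contrast and SD that between arrays. Values of other probe sets were adjusted over all probe sets of 1 symbol. The fit was tested on simulated data.

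The genes, lists and alternatives were chosen with earlier results of these data known. Some genes stand on more than 1 list. From each list the text names up to 3 called genes of smallest p per oxygen comparison, and fixed ventricular, skeletal and smooth muscle genes. Nppb, Bmp10, Corin, Tbx20, Nkx2-5, Atp2a2, Mybphl, Irx4, Cidea, Dio2 and the lung markers were named after their values were seen. The sex-matched fits were added after seeing the data.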

Additional observations from a re-analysis of the deposited data

Results flagged for a closer look

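The difference between hyperoxia and room air was not the same at the 2 ages for 8 of the 10 genes, by the interaction term of limma's fit (P29 minus P14, log2). Sex-linked transcripts also differed between the groups, and the part of sex in this term was not tested. The term was -1.41 ± 0.35 (SE, adjusted p = 0.0153) for Myh6, -1.59 ± 0.23 (adjusted p = 0.00074) for Tnnt2 and -1.41 ± 0.31 (adjusted p = 0.00757) for Tnni3. It was -2.31 ± 0.45 (adjusted p = 0.004) for Sln and -1.91 ± 0.28 (adjusted p = 0.000749) for Pln. For Actc1 it was -1.40 ± 0.19 (adjusted p = 0.000433) and for Myl4 -1.29 ± 0.34 (adjusted p = 0.0198). Nppa alone differed upwards, by 2.47 ± 0.58 (adjusted p = 0.0109).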

How the results depend on the processing

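Of 960 values of single genes under an alternative, 869 kept their direction and their side of the threshold, 53 lost a call, 32 gained one and 6 reversed. The causes were not tested. The reversals were all on other probe sets, below 5 on 8 or more arrays: Myh6 at P14 at -0.15 (as the probe set of highest SD and on its own), Tnnt2 at P29 at 0.0133, and Sln at -0.47 at P14, 0.34 for the difference of the effects and -0.31 for age in room air.

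Counts of genes called changed as follows. At P14, 3 rose with the probe set of highest SD (32.5% of all genes), 8 with only the groups compared (31.5%) and 0 with the actin term (5.42%). At P29 the actin term left 0 higher and 0 lower (10.9% and 8.52%). For the difference of the effects, an intensity trend and robust fit left 0 higher and 5 lower (12.3% and 12.4%). It ended the calls for Nppa (adjusted p = 0.0522), Myh6 (0.0565) and Myl4 (0.0544). With the P29 hyperoxia array of female RNA alone the difference for Nppa was 2.18. For age in hyperoxia, 1 fell with the trend (12.7%), with only the groups compared (12.5%) and with array weights (14.1%).

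Leaving out 1 array at a time gave 3 to 5 higher at P14, the 3 without room-air replicate 1 (24% of all genes in that fit). It gave 4 to 8 lower at P29, the 4 without room-air replicate 1 (18.9%) and the 8 without hyperoxia replicate 1 (22.2%). For the difference it gave 5 lower without P14 room-air replicate 1 (9.91%) to 9 without P29 hyperoxia replicate 1 (9.81%). It gave 0 higher without P14 room-air replicate 2 (7.29%) and 1 otherwise. For age in room air it gave 6 higher without P14 replicate 1 (18.8%) or P29 replicate 2 (17.6%), and 7 otherwise. In hyperoxia it gave 0 to 3 lower with age, the 3 without P29 replicate 1 (9.35%) and 1 without P14 replicate 1 (10%). In the fit with the replicate block 5 genes rose at P14 (31%), and 5 fell and 1 rose at P29 (25.7% and 32.9%). Only the Myl7 call at P29 ended. Same-numbered deviations correlated at 0.113 and 0.0098 at P14 and -0.093 and -0.0653 at P29. With 2 room-air arrays at each age, the deviations of that pair mirror each other. These values therefore cannot show whether the replicate numbers pair the arrays. With each array at its 75th percentile the all-gene median was -0.06 at P14 and -0.10 at P29, against 0.04 as deposited. Of the calls for the 10 genes, that scaling and quantile normalization each changed Tnni3 at P29 alone.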
